A study of Homo sapiens with 6 samples.

Results

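The hypoxia response genes described here are targets of the hypoxia-inducible factors (HIF) that are not glycolytic enzymes. The 10 members were listed by symbol, SLC2A1, VEGFA, CA9, PDK1, BNIP3, ADM, NDRG1, P4HA1, ANKRD37 and EGLN3, and matched to 10 of the 20263 Ensembl gene IDs in the count table. They were chosen by name and function, with no cut on their levels, but with earlier results of these data known. Counts of members set beside the share of all genes tested are therefore descriptions. Of the 10, 9 passed the filter on low counts and EGLN3 did not.

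RNA was sequenced from U118 cells, a human glioma line in long use, on the day labelled 2 of an siRNA experiment. The groups were 4 libraries given siRNA against RIPK2 (siRIPK2_1 to siRIPK2_4), 1 library labelled siNC, read here as a control siRNA, and 1 library labelled wild type (WT), which the labels do not describe as transfected. All libraries came from the same parental line, grown in serum-containing medium, and the labels name no low-oxygen treatment. Neither oxygen tension nor cell density at harvest is given in the sources used here. Nor do the labels tell whether the 4 siRIPK2 libraries stand for several siRNAs, for independent cultures or for transfections repeated on one culture. The p-values of the comparisons between siRIPK2, siNC and WT thus rest on the spread among the siRIPK2 libraries, and that spread may be technical. Where siNC and WT are pooled as controls, the difference between them also enters. The permutation test uses all libraries. siNC and WT are 1 library each and carry no SD.

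HIF is a pair of proteins, an alpha subunit (HIF1A or EPAS1) and a beta subunit (ARNT or ARNT2). In normal oxygen, prolyl hydroxylases of the EGLN family mark the alpha subunit for destruction through VHL, and in low oxygen the alpha subunit escapes this mark, binds DNA at short ACGTG or GCGTG motifs and raises transcription. In glioma, HIF targets are known for their high levels around necrotic areas, where they serve glucose uptake, pH control, vessel growth, matrix building and the removal of mitochondria.

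Total counts ranged from 33540619 to 45309423 per library, and levels are given as CPM, a gene's count scaled to its library's total with TMM factors. RIPK2, the targeted kinase gene, was at 3.86, 11.9, 6.27 and 4.32 CPM in siRIPK2_1 to siRIPK2_4, against 43.4 CPM in siNC and 56.8 CPM in WT. Its log2 fold change was -2.72 against siNC (unadjusted p = 0.000946, adjusted p = 0.972 in edgeR, with 0.00731 to 1 over the alternative fits and tools). Every pair of libraries differed far beyond sampling noise (chi-square per degree of freedom of 77.1 to 224), so none was treated as a duplicate. Pairs of siRIPK2 libraries were at 160 to 224, and siNC and WT at 88.5. The labels name the cells as astroblastoma. The astrocyte markers GFAP and S100B were at or below 1.09 CPM in every library, OLIG2 and FABP7 were at or below 0.187 CPM, and the astroglial marker SOX9 was at 47.5 to 122 CPM. The mesenchymal markers VIM and CD44 were at 3812 to 7572 and 224 to 556 CPM, whereas CHI3L1, on the same list, was at 0.055 to 0.437 CPM. The list of 10 mesenchymal and astroglial markers summed to 4338 to 7796 CPM in siRIPK2, 8196 CPM in siNC and 7089 CPM in WT, nearly all of it VIM. The stem and progenitor markers NES and SOX2 were lowest in siNC, the library with the highest level of most members. NES was at 73.1, 49.5, 19.5 and 43.1 CPM in siRIPK2_1 to siRIPK2_4, 18.5 CPM in siNC and 69.1 CPM in WT, with a log2 fold change of 1.33 for siRIPK2 against siNC (unadjusted p = 0.0798 in edgeR) and -1.90 for siNC against WT (unadjusted p = 0.0417, adjusted p = 1 in edgeR). SOX2 was at 14, 3.94, 0.908 and 4.76 CPM in siRIPK2_1 to siRIPK2_4, 0.748 CPM in siNC and 2.58 CPM in WT, with 2.97 for siRIPK2 against siNC (unadjusted p = 0.0697 in edgeR). The part of these markers in the results was not tested. Of the 8 macrophage and microglia markers, AIF1, TYROBP and C1QA were at 0, and the summed level of the list, nearly all of it CD68, was 108 to 149 CPM in siRIPK2, 95.1 CPM in siNC and 167 CPM in WT. The 6 endothelial markers summed to 2.03 to 7.54 CPM in siRIPK2, 7.23 CPM in siNC and 4.66 CPM in WT, with TEK at 0. The 5 epithelial markers summed to 3.99 to 7.53 CPM in siRIPK2, 5.24 CPM in siNC and 5.13 CPM in WT. The 5 neuron markers, mostly TUBB3, summed to 79.6 to 119 CPM in siRIPK2, 121 CPM in siNC and 116 CPM in WT, with STMN2 at 0. In these bulk libraries, fewer cells of a kind and less RNA per cell cannot be told apart.

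Promoter sequence was matched for 8 of the 10 genes in the RefSeq table (GRCh38.p14). VEGFA and NDRG1 were not matched. The 250 bases before the RefSeq start are shown for 4 genes, with the motifs ACGTG and GCGTG in capitals on either strand (CACGT and CACGC are the same motifs read on the opposite strand). CA9 and BNIP3 had the lowest siRIPK2 levels relative to siNC, and ANKRD37 and ADM the smallest differences from it. All 4 RefSeq starts lie inside the GENCODE gene spans given with the values. The windows are chr9:35673678-35673927 on the plus strand for CA9, chr10:131981924-131982173 on the minus strand for BNIP3, chr4:185396591-185396840 on the plus strand for ANKRD37 and chr11:10304823-10305072 on the plus strand for ADM.
CA9: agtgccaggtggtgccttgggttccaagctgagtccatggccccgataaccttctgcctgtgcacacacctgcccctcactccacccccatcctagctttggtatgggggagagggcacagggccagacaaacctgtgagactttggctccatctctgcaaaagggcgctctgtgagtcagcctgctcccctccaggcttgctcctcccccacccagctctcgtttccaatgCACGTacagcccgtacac
BNIP3: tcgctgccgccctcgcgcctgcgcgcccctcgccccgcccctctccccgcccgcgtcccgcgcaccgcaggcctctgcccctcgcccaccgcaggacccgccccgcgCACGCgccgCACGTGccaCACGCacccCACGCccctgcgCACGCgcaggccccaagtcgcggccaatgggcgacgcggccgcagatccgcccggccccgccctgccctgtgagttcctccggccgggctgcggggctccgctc
ANKRD37: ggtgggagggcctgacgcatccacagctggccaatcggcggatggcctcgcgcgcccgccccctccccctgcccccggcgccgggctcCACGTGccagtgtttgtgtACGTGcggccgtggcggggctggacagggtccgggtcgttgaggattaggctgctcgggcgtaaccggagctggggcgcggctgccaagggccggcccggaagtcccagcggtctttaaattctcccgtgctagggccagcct
ADM: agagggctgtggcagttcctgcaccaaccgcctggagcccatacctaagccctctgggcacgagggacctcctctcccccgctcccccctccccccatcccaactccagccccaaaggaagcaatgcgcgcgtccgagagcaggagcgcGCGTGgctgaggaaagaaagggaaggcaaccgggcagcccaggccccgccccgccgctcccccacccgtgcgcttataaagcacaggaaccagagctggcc
The CA9 window holds 1 motif, which begins 18 bases before the start. BNIP3 holds 6 matches between 143 and 104 bases before the start, of which 2 overlap in the palindrome CACGTG. ANKRD37 holds 3 matches, 2 of them overlapping in the same palindrome, and ADM holds 1 GCGTG at 101 bases before the start.

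Of the 8 genes with a promoter, 5 hold ACGTG in this window (ANKRD37, BNIP3, CA9, P4HA1 and PDK1, the last in 1 of its 2 RefSeq starts) and 6 hold either motif. Among all 35116 RefSeq promoter windows of the same length, 18.5% hold ACGTG, 32.2% hold GCGTG and 43.2% hold either. Among the 16653 windows of genes tested here, the shares are 21.7%, 42.1% and 53.5%. These shares count single windows, whereas the members are counted by gene. SLC2A1 and EGLN3 hold neither in this window. A match is a description of the letters. Against siNC, the log2 fold change was -1.28 for BNIP3, with 6 matches, and -0.15 for ANKRD37, with 3. It was -1.37 for CA9 and -0.16 for ADM, with 1 match each. Whether the number of matches goes with the difference from siNC was not tested.

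The members span a wide range of abundance. Per kilobase of exon, the mean over the 6 libraries was highest for NDRG1 at 106 CPM per kilobase, followed by BNIP3 at 51.9, SLC2A1 at 49.1, CA9 at 39 and P4HA1 at 35.1 CPM per kilobase. ADM was at 27.4 and VEGFA at 11.9 CPM per kilobase, and PDK1 and ANKRD37 were lowest among the genes that passed the filter, at 3.28 and 3.07 CPM per kilobase. These levels use the union of all annotated exons, which is 14883 bases for PDK1 and 14431 bases for VEGFA and lowers the value of genes with long alternative exons. The order also differed between libraries. In WT, P4HA1 at 35.6 CPM per kilobase was above CA9 at 27.8, and in siRIPK2_4, SLC2A1 at 39.5 and P4HA1 at 28.3 were above BNIP3 at 25.4 and CA9 at 9.16 CPM per kilobase. NDRG1 was the highest in every library, and the neighbours below it in this order did not keep their places.

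The siNC library held the highest level of most members, and the siRIPK2 libraries lay below it and around WT. All 9 members that passed the filter had a negative log2 fold change in siRIPK2 against siNC, where 48.3% of all 14306 genes tested did. Their median was -0.77, against 0.02 over all genes, with a range of -1.37 for CA9 to -0.15 for ANKRD37. In 6 of the 9 (SLC2A1, VEGFA, CA9, PDK1, BNIP3 and P4HA1) all 4 siRIPK2 libraries were below siNC, against 17.3% of all genes tested, although PDK1 in siRIPK2_1 equalled siNC at the printed precision and crosses it with other size factors. No member had all 4 siRIPK2 libraries above siNC, a position held by 19.3% of all genes tested. No member passed edgeR's quasi-likelihood test with Benjamini-Hochberg adjustment over all genes, in any of the 4 comparisons, and no gene of the table did (0% called in each). Against siNC, 682 genes had an unadjusted p under 0.05 in edgeR, DESeq2 called 74 genes at its adjusted threshold and limma-voom called 0. No member was among the DESeq2 calls. At an unadjusted p under 0.05 in edgeR, 2 members, SLC2A1 and BNIP3, were lower than in siNC, against 1.21% of all genes tested.

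**Figure D1:**
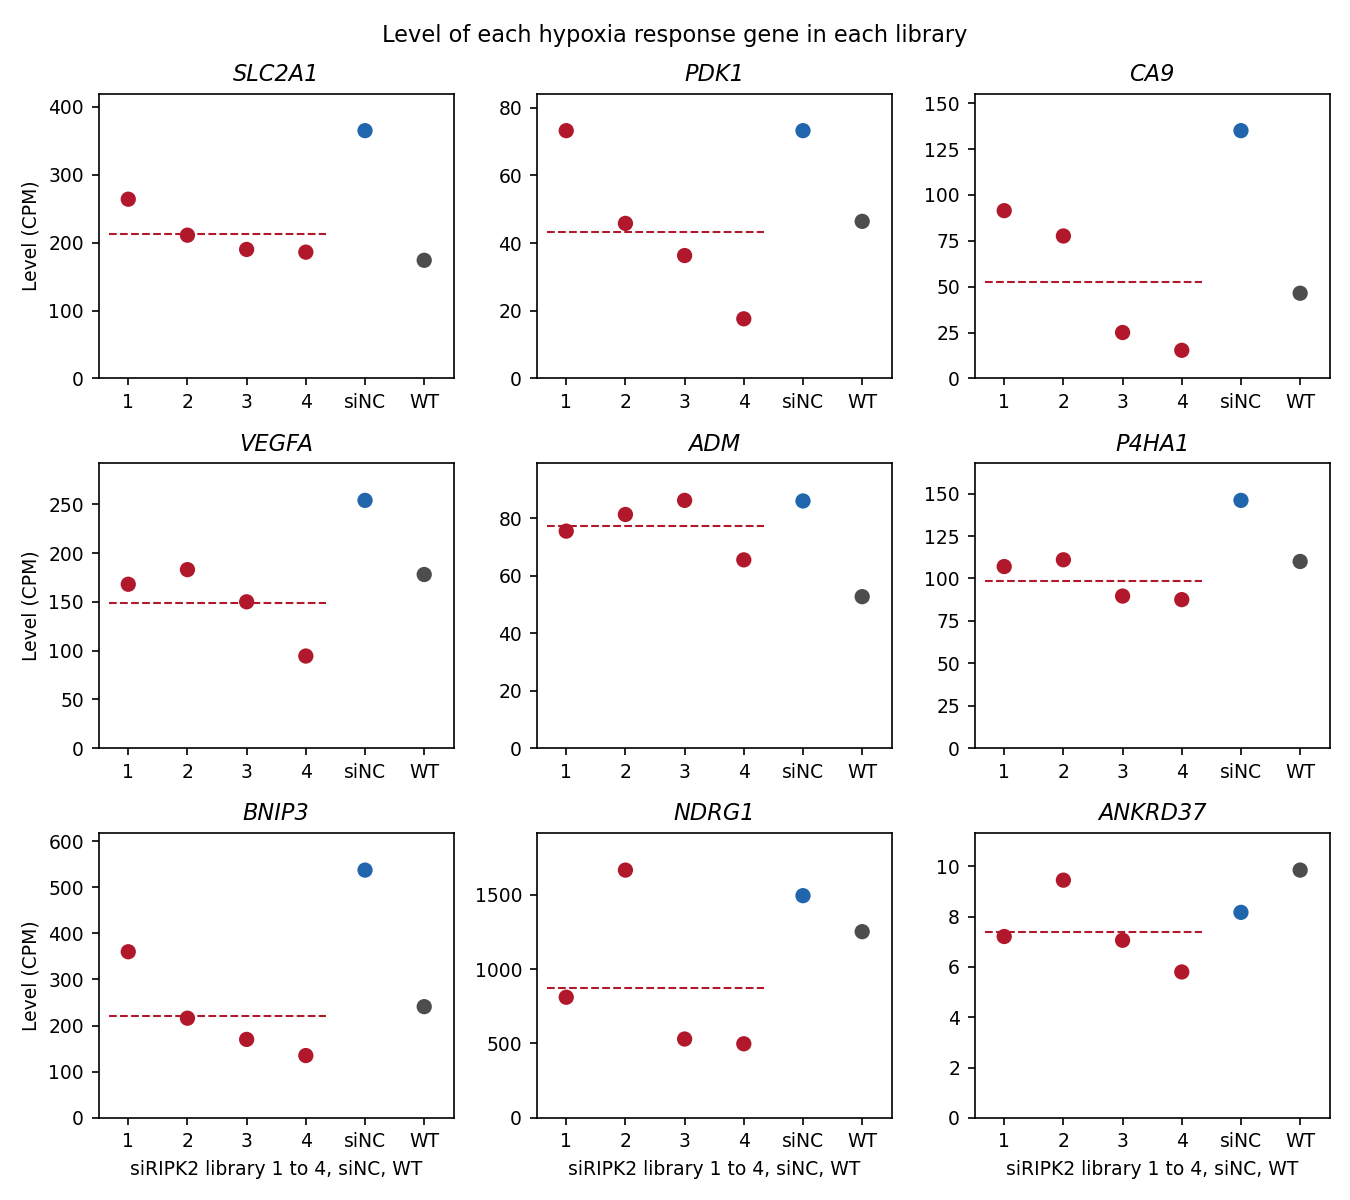
Level of each of the 9 hypoxia response genes that passed the filter, in CPM on a linear axis from 0, in siRIPK2_1 to siRIPK2_4 (red), siNC (blue) and WT (grey). The dashed line is the mean of the 4 siRIPK2 libraries. CA9 runs between 15.3 and 91.4 CPM in siRIPK2, with 135 CPM in siNC and 46.4 CPM in WT.

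Glucose uptake and its use are served by SLC2A1 and PDK1. SLC2A1 (ENSG00000117394, chromosome 1, 42925375 to 42959176, minus strand, GRCh38) encodes GLUT1, the glucose transporter of the plasma membrane. It was at 264, 211, 190 and 186 CPM in siRIPK2_1 to siRIPK2_4, against 365 CPM in siNC and 174 CPM in WT. Every siRIPK2 library was below siNC and above WT. The siRIPK2 mean was 213 ± 35.6 CPM (SD, n = 4), or 58.3% of siNC and 122% of WT. The log2 fold change was -0.78 against siNC (SE 0.291, unadjusted p = 0.029, adjusted p = 0.984 in edgeR) and 0.29 against WT (SE 0.313, unadjusted p = 0.386). In siNC against WT it was 1.07 (SE 0.392, unadjusted p = 0.0271, adjusted p = 1 in edgeR).

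PDK1 (ENSG00000152256, chromosome 2, 172555373 to 172608669, plus strand) encodes pyruvate dehydrogenase kinase 1, which switches off the entry of pyruvate into the citric acid cycle. It was at 73.2, 45.8, 36.3 and 17.6 CPM in siRIPK2_1 to siRIPK2_4, against 73.2 CPM in siNC and 46.4 CPM in WT. The siRIPK2 libraries thus spread over 4.16-fold, with siRIPK2_1 level with siNC and siRIPK2_4 well below WT. The log2 fold change of the mean was -0.76 against siNC (SE 0.605, unadjusted p = 0.246 in edgeR) and -0.10 against WT (SE 0.632), the value against WT being 0.16 without siRIPK2_4. The difference from siNC was not larger than the spread among the siRIPK2 libraries.

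CA9 (ENSG00000107159, chromosome 9, 35673856 to 35681159, plus strand) encodes carbonic anhydrase IX, which hydrates carbon dioxide at the cell surface and so helps tumour cells export acid. It was at 91.4, 77.6, 25 and 15.3 CPM in siRIPK2_1 to siRIPK2_4, against 135 CPM in siNC and 46.4 CPM in WT. CA9 was lower than siNC in each siRIPK2 library, but siRIPK2_1 and siRIPK2_2 were above WT and siRIPK2_3 and siRIPK2_4 below it. The siRIPK2 mean was 52.3 ± 37.8 CPM (SD, n = 4), 38.6% of siNC and 113% of WT. Its log2 fold change was -1.37 against siNC (SE 0.798, unadjusted p = 0.125 in edgeR), 0.17 against WT (SE 0.88), and 1.55 for siNC against WT (SE 1.12, unadjusted p = 0.207). Against WT the value was -0.24 without siRIPK2_1 and -0.08 without siRIPK2_2. Within siRIPK2 its levels spanned 5.98-fold, and the SD of log2(CPM + 1) was 1.22, above that of 99.2% of the 10673 genes with a mean of at least 5 CPM. The exons of CA9 overlap those of ARHGEF39, which lies on the opposite strand, and the strand setting of the counting is not given in the sources used here. ARHGEF39 was at 16.8, 8.33, 9.79 and 10.4 CPM in siRIPK2_1 to siRIPK2_4, 12.6 CPM in siNC and 8.88 CPM in WT.

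Signals that leave the cell are encoded by VEGFA, the growth factor of vessel sprouting, and ADM, whose product adrenomedullin widens vessels. VEGFA (ENSG00000112715, chromosome 6, 43770184 to 43786487, plus strand) was at 168, 183, 150 and 94.4 CPM in siRIPK2_1 to siRIPK2_4, against 254 CPM in siNC and 178 CPM in WT. All siRIPK2 libraries were below siNC, and siRIPK2_2 was slightly above WT. The mean of 149 ± 38.7 CPM (SD, n = 4) was 58.5% of siNC and 83.9% of WT, a log2 fold change of -0.77 against siNC (SE 0.367, unadjusted p = 0.0696 in edgeR).

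ADM (ENSG00000148926, chromosome 11, 10304680 to 10307397, plus strand) had the highest log2 fold change of siRIPK2 against WT among the members. It was at 75.5, 81.3, 86.2 and 65.5 CPM in siRIPK2_1 to siRIPK2_4, against 86 CPM in siNC and 52.7 CPM in WT. All 4 siRIPK2 libraries were above WT, and siRIPK2_3 was level with siNC. The mean of 77.1 ± 8.88 CPM (SD, n = 4) was 89.7% of siNC and 146% of WT, with a log2 fold change of 0.55 against WT (SE 0.306, unadjusted p = 0.113 in edgeR) and -0.16 against siNC (SE 0.292). ADM and SLC2A1 were the 2 members with every siRIPK2 library above WT, where 11.5% of all genes tested were so placed.

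P4HA1 (ENSG00000122884, chromosome 10, 73007217 to 73096974, minus strand) encodes the catalytic subunit of collagen prolyl 4-hydroxylase, an enzyme of collagen folding. It was at 107, 111, 89.6 and 87.5 CPM in siRIPK2_1 to siRIPK2_4, against 146 CPM in siNC and 110 CPM in WT. The siRIPK2 libraries lay close together, with a mean of 98.7 ± 11.9 CPM (SD, n = 4), all below siNC and 3 of them below WT. The log2 fold change was -0.56 against siNC (SE 0.282, unadjusted p = 0.0813 in edgeR) and -0.16 against WT (SE 0.289).

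BNIP3, NDRG1 and ANKRD37 act inside the cell. BNIP3 (ENSG00000176171, chromosome 10, 131966455 to 131982013, minus strand) encodes a receptor of the outer mitochondrial membrane that directs mitochondria to autophagy. It was at 360, 216, 170 and 135 CPM in siRIPK2_1 to siRIPK2_4, against 537 CPM in siNC and 241 CPM in WT. Each siRIPK2 library was below siNC, and all but siRIPK2_1 were also below WT. The mean of 220 ± 98.5 CPM (SD, n = 4) was 41.1% of siNC and 91.5% of WT. The log2 fold change was -1.28 against siNC (SE 0.463, unadjusted p = 0.0248, adjusted p = 0.984 in edgeR), -0.13 against WT (SE 0.497), and 1.16 for siNC against WT (SE 0.642, unadjusted p = 0.111). Against WT the value was 0.05 without siRIPK2_4. BNIP3 has processed pseudogene copies, and how the counting treated reads that match several places is not given in the sources used here.

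NDRG1 (ENSG00000104419, chromosome 8, 133237171 to 133302022, minus strand), a stress-induced gene used as a hypoxia marker in tumours, had another order of libraries. It was at 811, 1666, 530 and 498 CPM in siRIPK2_1 to siRIPK2_4, against 1494 CPM in siNC and 1252 CPM in WT. The siRIPK2_2 library was the highest of all 6, whereas the other 3 siRIPK2 libraries were below both controls. The log2 fold change of the mean, 876 ± 545 CPM (SD, n = 4), was -0.77 against siNC (SE 0.598, unadjusted p = 0.235 in edgeR) and -0.51 against WT (SE 0.608). Without siRIPK2_2 it was -1.29 against siNC and -1.03 against WT.

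ANKRD37 (ENSG00000186352, chromosome 4, 185396021 to 185400628, plus strand), which encodes a small ankyrin repeat protein, was at 7.21, 9.45, 7.06 and 5.8 CPM in siRIPK2_1 to siRIPK2_4, against 8.17 CPM in siNC and 9.85 CPM in WT. It was the member with every siRIPK2 library below WT, a position held by 12.8% of all genes tested. It was also the only member for which siNC was below WT. Without siRIPK2_1 there were 3 members with the remaining siRIPK2 libraries below WT, and without siRIPK2_2 there were 4. The 12.8% does not apply to these counts over fewer libraries, and their share over all genes was not computed. The log2 fold change was -0.42 against WT (SE 0.395, unadjusted p = 0.324 in edgeR) and -0.15 against siNC (SE 0.403). Its exons overlap UFSP2 on the opposite strand, which was at 27, 24.6, 14.5 and 27.3 CPM in siRIPK2_1 to siRIPK2_4, 23.1 CPM in siNC and 27.5 CPM in WT.

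EGLN3 (ENSG00000129521, chromosome 14, 33924231 to 34462774, minus strand) encodes a HIF prolyl hydroxylase that is itself a HIF target and so feeds back on the pathway. It had 2 counts in siRIPK2_1 and 0 counts in the other 3 siRIPK2 libraries, in siNC and in WT. A count of 0 allows a level of up to 3 counts, between 0.0664 and 0.0935 CPM in these libraries, for counting error only. EGLN3 was therefore not detectable at this depth in any group, and no fold change is given. Its relatives EGLN1 and EGLN2, the second of which shares exons with the readthrough gene RAB4B-EGLN2 and cannot be told apart from it, were at 78.6 ± 16.9 and 57.4 ± 16.8 CPM in siRIPK2 (SD, n = 4), 115 and 71.5 CPM in siNC, and 69.7 and 37.5 CPM in WT.

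**Figure D2:**
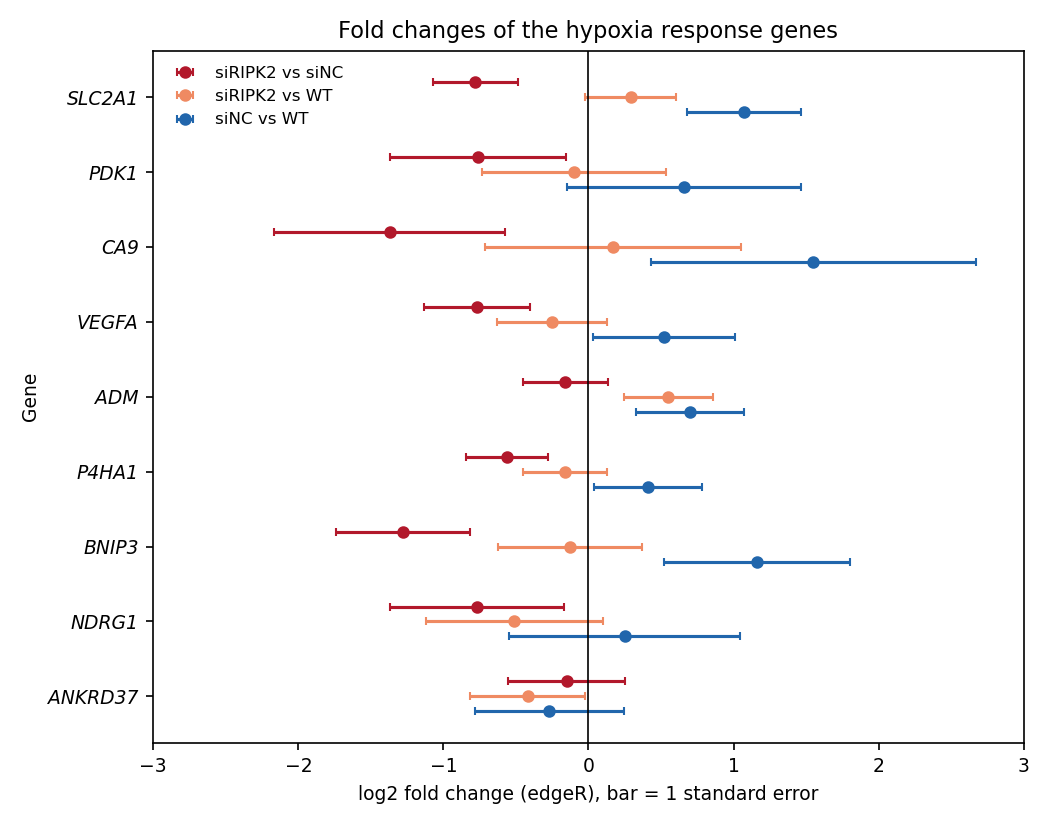
Log2 fold change of each gene from edgeR, with bars of 1 standard error, for siRIPK2 against siNC (red), siRIPK2 against WT (orange) and siNC against WT (blue). These comparisons share libraries, so they are not independent. Against siNC the values run from -1.37 (CA9) to -0.15 (ANKRD37), and against WT from -0.51 (NDRG1) to 0.55 (ADM).

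Against WT the members did not lie to one side. Of the 9, 3 had a positive and 6 a negative log2 fold change, where 48.1% of all genes tested had a negative one. The median was -0.13 (0.01 over all genes tested), and 0.05 without siRIPK2_4. No member had an unadjusted p under 0.05 in edgeR, where 0.419% of all genes were lower and 0.664% higher at that p. Over all genes, 155 had an unadjusted p under 0.05 in this comparison, DESeq2 called 9 at its adjusted threshold and limma-voom 1. The siNC library was above WT in 8 of the 9 members, where 49.6% of all genes tested were, and the median log2 fold change of siNC against WT was 0.66 (0.00 over all genes). ANKRD37 had the negative value among them, where 50.2% of all genes did. At an unadjusted p under 0.05 in edgeR, SLC2A1 was higher in siNC and no member was lower, against 0.643% of all genes higher and 2.09% lower. For siNC against WT, 391 genes had an unadjusted p under 0.05 in edgeR, DESeq2 called 11 and limma-voom 0.

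With siNC and WT pooled as controls, 8 of the 9 members had a negative log2 fold change in siRIPK2, where 47.9% of all genes tested did, and the median was -0.47. The median was -0.78 without WT and -0.12 without siNC. ADM had the positive value, 0.15, and was at -0.16 without WT, whereas SLC2A1 and CA9 were at 0.29 and 0.18 without siNC. No member had an unadjusted p under 0.05 in edgeR, where 1.23% of all genes were lower and 1.32% higher, 355 genes in all. DESeq2 called 11 genes in this comparison and limma-voom 0. No member had all 4 siRIPK2 libraries below both controls (5.5% of all genes) or above both (4.96%). Without siRIPK2_1 there were 2 members below both, and without siRIPK2_2 there were 4. The share over all genes was not computed for these counts over fewer libraries. The exact two-sided permutation test of each member's mean log2(CPM + 1), over the 15 ways to choose 4 of 6 libraries, gave p from 0.2 (BNIP3 and P4HA1) to 0.6 (SLC2A1 and ADM). The smallest p that this test can give is 0.0667, the value of RIPK2 itself.

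The members also varied among the siRIPK2 libraries, and largely in the same order. siRIPK2_4 was the lowest siRIPK2 library in all 9 members, where it was so for 23.5% of all genes tested, and the lowest of all 6 libraries in 7 of them (17.1% of all genes). siRIPK2_1 was above both siRIPK2_3 and siRIPK2_4 in 8 of the 9, all but ADM (34.7% of all genes). These orders were noticed in the data and carry no test, since the labels distinguish the siRIPK2 libraries by number alone. The residual level of RIPK2 was 3.86, 11.9, 6.27 and 4.32 CPM in siRIPK2_1 to siRIPK2_4. It fell from siRIPK2_2 to siRIPK2_4, as the median centred level of the members did (0.14, -0.25 and -0.79). siRIPK2_1 had the lowest RIPK2 and a member median of 0.04. Between them, siRIPK2_1 and siRIPK2_2 held the highest siRIPK2 level of 8 of the 9 members (51.9% of all genes tested). The part of the residual RIPK2 level in these orders was not tested. Beside CA9, the spread was large for PDK1 and NDRG1, whose SD of log2(CPM + 1) across the siRIPK2 libraries was 0.832 and 0.801, above that of 96% and 95.4% of genes with a mean of at least 5 CPM. BNIP3 and VEGFA had 0.601 and 0.422, and ANKRD37, SLC2A1, P4HA1 and ADM lay between 0.255 and 0.168, below the median gene at 0.306.

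**Figure D3:**
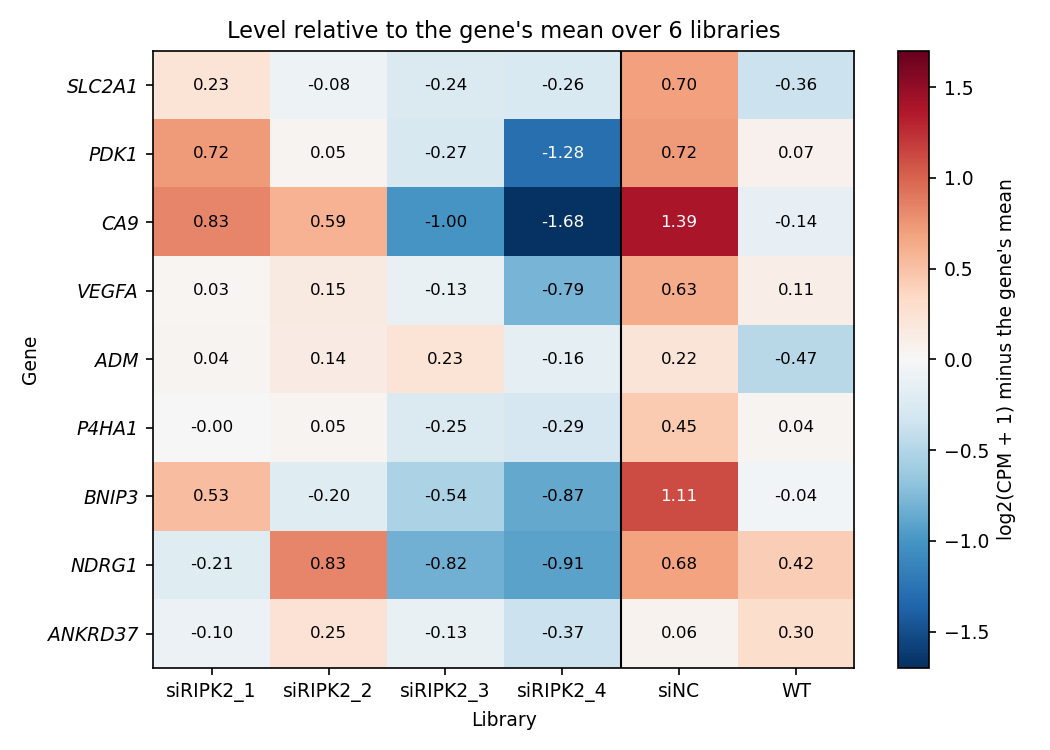
Level of each gene in each library as log2(CPM + 1) minus the gene's mean over the 6 libraries, with siRIPK2_1 to siRIPK2_4 left of the line and siNC and WT right of it. Red is above and blue below the gene's mean. siNC is above the mean in every row, and siRIPK2_4 is below it in every row, from -1.68 for CA9 to -0.16 for ADM.

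Other HIF targets outside glycolysis, from a list of 35 genes that excludes the members, had a smaller difference in the same direction. Against siNC, 29 were lower and 6 higher (48.3% of all genes tested were lower), with a median log2 fold change of -0.39. At an unadjusted p under 0.05 in edgeR, 7 were lower and 0 higher, where 1.21% of all genes were lower and 3.56% higher, and 0 passed the adjusted threshold. MXI1, an antagonist of MYC, was at 9.64 ± 2.56 CPM in siRIPK2 (SD, n = 4), 22 CPM in siNC and 15.9 CPM in WT. FAM162A, a mitochondrial protein gene whose exons overlap WDR5B, was at 40.9 ± 9.55 CPM in siRIPK2 (SD, n = 4), 84.6 CPM in siNC and 40.1 CPM in WT. AK4, an adenylate kinase of mitochondria, was at 79.8 ± 26.2 CPM in siRIPK2, 192 CPM in siNC and 103 CPM in WT. PLOD2, which hydroxylates lysines in collagen, was at 248 ± 65.1 CPM in siRIPK2, 456 CPM in siNC and 262 CPM in WT. When set against WT, the list had 14 genes higher and 21 lower, where 48.1% of all genes tested were lower, with a median of -0.07.

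Glycolytic enzymes, which are HIF targets of another kind, were lower than in siNC in 15 of 16 cases, against 48.3% of all genes tested. At an unadjusted p under 0.05 in edgeR, 7 of the 16 were lower and 0 higher, against 1.21% and 3.56% of all genes, and 0 passed the adjusted threshold. Their median log2 fold change was -0.57 in that comparison and -0.07 against WT. TPI1, the triosephosphate isomerase gene, with exons that overlap SPSB2, was at 1268 ± 19.9 CPM in siRIPK2 (SD, n = 4), 2200 CPM in siNC and 1290 CPM in WT. In centred log2(CPM + 1), the median of the members was 0.04, 0.14, -0.25 and -0.79 in siRIPK2_1 to siRIPK2_4, 0.68 in siNC and 0.04 in WT. That of glycolytic enzymes was 0.10, -0.08, -0.12 and -0.28 in siRIPK2_1 to siRIPK2_4, 0.46 in siNC and -0.04 in WT. Both lists were highest in siNC and lowest in siRIPK2_4, and whether they differ from each other was not tested.

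**Figure D4:**
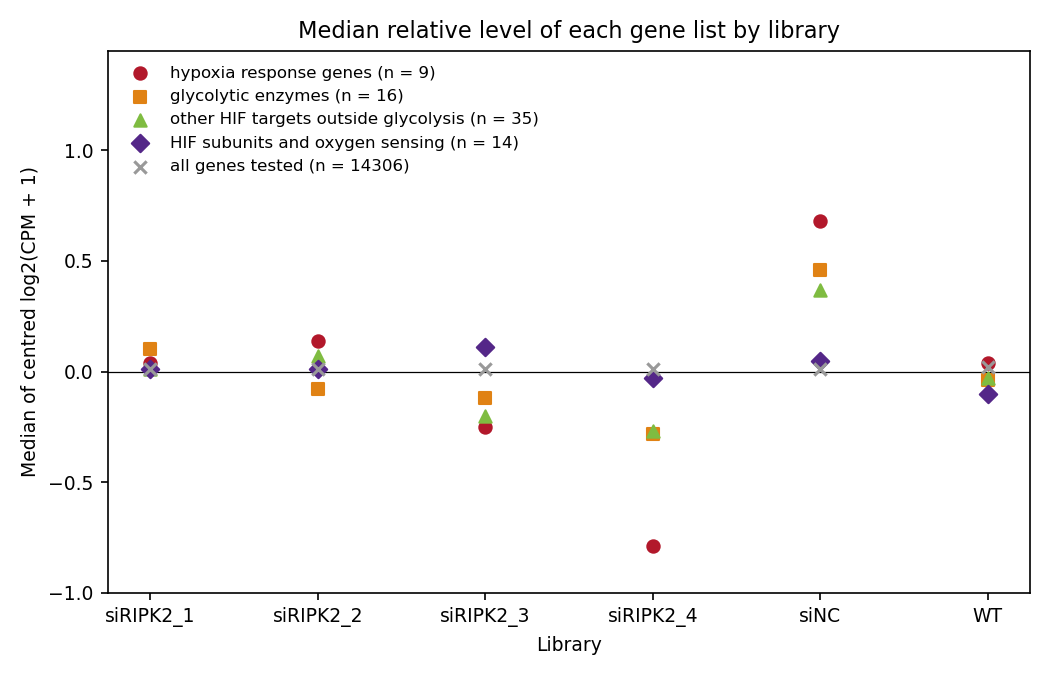
Median over each gene list of log2(CPM + 1) centred on each gene's mean over the 6 libraries, by library, for the hypoxia response genes, glycolytic enzymes, other HIF targets, the HIF subunits with the oxygen-sensing genes, and all genes tested. The hypoxia response genes reach 0.68 in siNC and -0.79 in siRIPK2_4, whereas the HIF subunits and oxygen-sensing genes stay between -0.10 and 0.11.

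The transcripts of the HIF machinery had no common direction. Of 15 listed genes, 14 were tested, with 6 higher and 8 lower in siRIPK2 than in siNC and a median of -0.03. Of all genes tested, 48.3% were lower. None of the 14 had an unadjusted p under 0.05 in edgeR, where 1.21% of all genes were lower and 3.56% higher. HIF1A was at 731, 618, 983 and 361 CPM in siRIPK2_1 to siRIPK2_4, against 591 CPM in siNC and 579 CPM in WT. Its lowest level was in siRIPK2_4, the library with the lowest member levels, but its highest was in siRIPK2_3. EPAS1, which encodes HIF-2 alpha, was at 177, 597, 380 and 328 CPM in siRIPK2_1 to siRIPK2_4, against 522 CPM in siNC and 471 CPM in WT. Among the beta subunits, ARNT was at 30.2 ± 6.03 CPM in siRIPK2 (SD, n = 4), 30.8 CPM in siNC and 34.5 CPM in WT. ARNT2 was at 27.6 ± 9.2 CPM in siRIPK2, 14.5 CPM in siNC and 18.6 CPM in WT. VHL was at 56.2 ± 16.9 CPM in siRIPK2, 53.2 CPM in siNC and 46.5 CPM in WT. HIF1AN, the asparagine hydroxylase that blocks HIF from its coactivators, was at 86.3 ± 18.7 CPM in siRIPK2, 99.3 CPM in siNC and 80.3 CPM in WT. The coactivators CREBBP and EP300 were at 108 ± 22.2 and 170 ± 36.1 CPM in siRIPK2, 90.8 and 151 CPM in siNC, and 141 and 142 CPM in WT. The ubiquitin ligase parts CUL2, RBX1, ELOB and ELOC had log2 fold changes of 0.29, -0.28, -0.32 and -0.02 against siNC. EGLN2, HIF1AN and ELOB have exons that overlap other listed genes. HIF activity is set largely by the stability of the alpha subunits' protein, which these RNA data do not measure.

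Paralogs of the members formed a list of 29 genes, of which 24 were tested and some also stand on the lists above. Against siNC, 18 were lower and 6 higher, where 48.3% of all genes tested were lower, and the median was -0.32. At an unadjusted p under 0.05 in edgeR, 1 (SLC2A6) was lower, against 1.21% of all genes. SLC2A6, a sugar transporter gene, was at 19.7 ± 7.35 CPM in siRIPK2 (SD, n = 4), 43.9 CPM in siNC and 28.1 CPM in WT. P4HA2, the sister subunit of P4HA1, was at 129 ± 43.8 CPM in siRIPK2, 217 CPM in siNC and 157 CPM in WT. BNIP3L, the close relative of BNIP3 in mitochondrial autophagy, was at 120 ± 22.7 CPM in siRIPK2, 179 CPM in siNC and 195 CPM in WT. Unlike BNIP3, it was not higher in siNC than in WT. PDK4, a relative of PDK1, was at 6 ± 1.43 CPM in siRIPK2, 3.33 CPM in siNC and 5.49 CPM in WT. The exons of BNIP3L overlap PNMA2.

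Of 20 receptors and metabolic partners of the members, 17 were tested, and 7 were higher and 10 lower than in siNC (median -0.09), where 48.3% of all genes tested were lower. At an unadjusted p under 0.05 in edgeR, 1 was lower and 0 higher, against 1.21% and 3.56% of all genes. SLC16A3 (exons overlap CSNK1D), the lactate exporter MCT4 and itself a HIF target, was at 332, 305, 144 and 215 CPM in siRIPK2_1 to siRIPK2_4, against 540 CPM in siNC and 269 CPM in WT. All 4 siRIPK2 libraries were below siNC, and the log2 fold change was -1.12 (SE 0.419, unadjusted p = 0.0293, adjusted p = 0.984 in edgeR). PDHX (exons overlap APIP), a component of the pyruvate dehydrogenase complex that PDK1 controls, was at 17.9 ± 4.22 CPM in siRIPK2 (SD, n = 4), 29 CPM in siNC and 21.3 CPM in WT. The bicarbonate transporters SLC4A7 and SLC4A4, which work beside carbonic anhydrases, were at 94.4 ± 15.2 and 11.9 ± 7.52 CPM in siRIPK2, 61.8 and 4.58 CPM in siNC, and 73.5 and 8.52 CPM in WT. Both were higher in siRIPK2 than in siNC, where CA9 was lower, and neither passed (unadjusted p of 0.0983 and 0.116 in edgeR).

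The 5 genes whose centred profile over the 6 libraries was nearest to the median profile of the members were SPAG4, TMEM140, PRKCA, PGM1 and NUDT18, among 10664 genes with a mean of at least 5 CPM. Their root mean square difference from it was 0.0872, 0.0889, 0.105, 0.112 and 0.112 in log2(CPM + 1), where the median gene had 0.525 and VEGFA, the nearest member, 0.0615. PGM1, which links glycogen and glycolysis, was at 218, 211, 156 and 128 CPM in siRIPK2_1 to siRIPK2_4, 289 CPM in siNC and 193 CPM in WT. The exons of PGM1 and of TMEM140 overlap those of other listed genes. PRKCA, a protein kinase C gene, was at 236, 268, 179 and 136 CPM in siRIPK2_1 to siRIPK2_4, 321 CPM in siNC and 250 CPM in WT. SPAG4 was at 8.98, 7.94, 6.27 and 3.88 CPM in siRIPK2_1 to siRIPK2_4, 13.5 CPM in siNC and 8.32 CPM in WT. All of these were highest in siNC and lowest in siRIPK2_4, as the median profile of the members is. That likeness follows from how these genes were chosen. Over 6 libraries, a near profile is a description of these libraries only.

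The siNC library had trends with GC content and with exon length. In siNC against WT, the 2859 genes with the lowest GC content had a median log2 fold change of -0.22, and the 2859 with the highest had 0.09. For siRIPK2 against siNC the same classes had 0.21 and -0.08, and for siRIPK2 against WT -0.01 and 0.01. PDK1 and P4HA1 lie in the low GC class and ADM and CA9 in the highest. Against siNC, PDK1 and P4HA1 were at -0.76 and -0.56, opposite in sign to their class. ADM and CA9 were at -0.16 and -1.37, of the same sign as theirs. The 2859 genes of shortest exon length had a median of 0.08 in siNC against WT, and the 2859 longest -0.08. These medians were -0.07 and 0.11 for siRIPK2 against siNC, and 0.03 and 0.02 for siRIPK2 against WT. ADM, ANKRD37 and CA9 lie in the shortest class and NDRG1, PDK1 and VEGFA in the longest. Against siNC, ADM, ANKRD37 and CA9 were at -0.16, -0.15 and -1.37, of the same sign as their class. NDRG1, PDK1 and VEGFA were at -0.77, -0.76 and -0.77, opposite in sign to theirs. With offsets for exon length and GC content, the median of the members was -0.78 against siNC, and -0.77 without them. Single members moved more, with PDK1 at -1.02 with the offsets and -0.76 without, CA9 at -1.16 and -1.37, and ADM at -0.03 and -0.16. The part of the GC and exon length trends in the result was not tested further. Mitochondrially encoded transcripts took 4.71%, 4.1%, 4.12% and 4.13% of counts in siRIPK2_1 to siRIPK2_4, 4.64% in siNC and 4.27% in WT, and their part in the result was not tested.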

How the data were processed

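Poly(A) RNA-seq of 6 U118 libraries was used. The authors deposited 1 table of raw, unnormalised counts by Ensembl ID. The submitters' processing notes name FastQC, Trimmomatic, HISAT2, bedtools and the build GRCh38, without a role or order. Nothing on versions, annotation release or strand setting is given in the sources used here, and exons of 5320 among the 20263 IDs overlap those of a further ID, so reads of such pairs cannot be told apart. Symbols were matched for 20148 IDs. GENCODE release 29 (GRCh38) gave positions, exon lengths and GC content. Totals of 33540619 to 45309423 counts set the precision, and the floor of 3 counts covers counting error only.

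The test was edgeR 4.0.16 in R 4.3.3, with TMM factors, filterByExpr at its minimum count of 10, the quasi-likelihood F test, and Benjamini-Hochberg adjustment over all 14306 genes with a threshold of 0.05. A model with 3 groups yielded the contrasts between siRIPK2, siNC and WT. The siRIPK2 libraries supply all 3 residual degrees of freedom, so siNC and WT are assumed to vary like those libraries. A model with 2 groups set siRIPK2 against both controls (13901 genes, 4 residual degrees of freedom). Library levels on the log2 scale use a pseudocount of 1. The alternatives were DESeq2 1.42.0, limma 3.58.1 (voom), DESeq2 size factors, no filter, another pseudocount, length and GC offsets, and leaving out each library. The code was tested on simulated counts.

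All 10 members were named. From each other list, up to 4 genes of lowest unadjusted p against siNC with a mean of at least 1 CPM could be named, and every such gene of the HIF machinery. Other marker genes and overlapping genes were named after their values were seen. The members and lists were chosen with earlier results of these data known.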

Additional observations from a re-analysis of the deposited data

Results flagged for a closer look

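For 51 genes, the members tested, RIPK2 and those named from the lists, the 4 siRIPK2 libraries were searched for one that lay far from the other 3. PECAM1, an endothelial marker at low level, was the 1 gene found. It was at 2.75 CPM in siRIPK2_2, against 0.984, 0.664 and 0.825 CPM in siRIPK2_1, siRIPK2_3 and siRIPK2_4, with 1.99 CPM in siNC and 1.53 CPM in WT. The gap between siRIPK2_2 and the nearest of the others was 0.847 of the range, past Dixon's 95% critical value for 4 samples. Chance picks out about 1 in 20 groups, so 1 of 51 is not more than chance gives.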

How the results depend on the processing

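No member passed the adjusted threshold under any alternative run. All 9 members stayed negative against siNC in all alternatives, and their median stayed between -0.85 and -0.58 when 1 siRIPK2 library was left out. Against WT the direction depended on single libraries: the median was between -0.32 and 0.05, CA9 between -0.24 and 0.48 (and -0.19 in limma-voom), PDK1 between -0.48 and 0.16, and BNIP3 between -0.47 and 0.05. Without siRIPK2_4 the median, PDK1 and BNIP3 turned to 0.05, 0.16 and 0.05, and without siRIPK2_1 or siRIPK2_2 CA9 turned to -0.24 and -0.08. Against both controls, SLC2A1 and CA9 turned to 0.29 and 0.18 without siNC, and ADM to -0.16 without WT. The count of members with all siRIPK2 libraries below siNC was 6, between 6 and 8 with a library left out, and 5 with DESeq2 size factors. Below WT it was 1, and between 1 and 4 with a library left out. Below both controls it was 0, between 0 and 4 with a library left out, and 1 with length and GC offsets. For counts with a library left out, the share over all genes was not computed. Over all genes, DESeq2 called 74 against siNC, 9 against WT, 11 for siNC against WT and 11 against both controls. limma-voom called 1 against WT, as did edgeR with no filter, and leaving out a siRIPK2 library gave 0 to 2 calls against both controls. The cause was not tested. No paired analysis was possible because siNC and WT have 1 library each and carry no replicate number. The biological coefficient of variation was 33.7% in the model with 3 groups and 31.5% in the model with 2 groups.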
